A study of Mus musculus with 4 samples.

Results

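The genes that encode the proteins of the cytosolic ribosome were described in medullary thymic epithelial cells (mTECs) of mice with and without a conditional deletion of *Sirt6*. Members were the rows whose symbol starts with Rpl or Rps and a number, together with *Rplp0*, *Rplp1*, *Rplp2* and *Rpsa*. The 10 *Rps6k* kinase genes and 6 rows whose names mark them as pseudogenes (-ps) were left out. This rule took 86 of the 23337 genes in the count table. Of these, 31 encode proteins of the small subunit and 46 encode proteins of the large subunit, and these 77 are called canonical below. Another 8 are paralogs of subunit genes. The remaining one, *Rps19bp1*, has a name that starts like a ribosomal protein but encodes a binding partner of RPS19 and not a subunit.

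The 4 libraries came from mTECs sorted as CD45-, EpCAM+, UEA-1+ and Ly51- from thymi of C57BL/6 mice aged 4 weeks. The 2 WT libraries are from mice negative for *Foxn1*-Cre, which were littermates or age-matched animals. The 2 libraries labelled *Sirt6* cKO are from *Foxn1*-Cre *Sirt6* loxp/loxp mice, in which *Foxn1*-Cre acts in thymic epithelial cells, and their genotype label is Sirt6-/-. The study calls the samples of a group independent and parallel, and does not say how many animals entered each one. P-values therefore measure the spread between these samples.

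The libraries held between 61102704 and 65907745 counts, and between 18608 and 19475 genes had a count. *Sirt6* itself was not lower where it was labelled as deleted. Its CPM, the count relative to the library total after TMM normalization for library composition, were 9.50 and 11.9 in WT 1 and WT 2 but 14.6 and 13.0 with the *Sirt6* cKO label (log2 fold change 0.37, SE 0.32, adjusted p = 0.80, edgeR's quasi-likelihood test with Benjamini-Hochberg adjustment). Counts over the whole gene include reads outside the floxed part, so a partial deletion was not tested. The study reports inactivation of *Sirt6*, from a western blot of cultured thymic epithelial cells and quantitative PCR of sorted medullary and cortical cells. Direction below always means the libraries labelled *Sirt6* cKO over WT. The markers of mTECs were present in all 4 libraries, with a summed level over 9 genes, among them *Epcam*, *Aire* and *H2-Aa*, of 11200 and 10800 CPM in WT and 12300 and 12700 CPM with the *Sirt6* cKO label. Most of each sum was the MHC class II gene *H2-Aa*, at 7530 and 7120 CPM in WT and 8230 and 7410 CPM with the *Sirt6* cKO label. Of these 9 markers, 3 were higher at an unadjusted p of 0.05 in edgeR, *Epcam* (log2 fold change 0.48), *Aire* (0.65) and *Cd80* (0.94). None passed as lower, where 5.27% of all tested genes passed as higher and 3.32% as lower. The values of *Cldn3* (-0.31) and *Fezf2* (-0.20) were below 0. For *Cldn3* both libraries labelled *Sirt6* cKO (13.6 and 12.6 CPM) were below both WT libraries (14.2 and 18.4 CPM). No adjusted p was under 0.05, and the part of these marker differences in the values below was not tested. These are bulk samples, so fewer cells of a type and less RNA per cell cannot be told apart.

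A ribosome consists of a small subunit, which reads the mRNA, and a large subunit, which joins the amino acids. Each subunit holds ribosomal RNA and 1 copy of most of its proteins, and growing or secretory cells devote a large part of their mRNA to these proteins. The mRNAs of many ribosomal proteins begin with a terminal oligopyrimidine (TOP) stretch, a cytosine followed by further pyrimidines, through which mTOR signaling controls their translation. Their transcription is raised by MYC, and SIRT6, a deacetylase of histones, is known from other cells to restrain MYC at ribosomal protein genes. mTECs display peripheral antigens to developing T cells, which rests on the synthesis of many different proteins.

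To show what the start of these genes looks like, 30 bases around the RefSeq transcription start (GRCm38.p6, 15 bases on each side, in the direction of the gene) are given for 7 members. They were taken from the small subunit, the large subunit and the P-stalk, and from the most abundant gene and from *Rps19bp1*, which had the smallest p among the members. Capitals mark a run of at least 5 pyrimidines that begins with C within 5 bases of the start. The windows of *Rpl4* and *Rps19bp1* hold no such run. The base before a run was not checked, so capitals can mark part of a longer pyrimidine stretch, as for *Rpl35*.
Rps6, small subunit, chr4:86857353-86857382, minus strand: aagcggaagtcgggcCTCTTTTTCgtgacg
Rps27, small subunit, chr3:90213634-90213663, minus strand: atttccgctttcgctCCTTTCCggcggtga
Rpl35, large subunit, chr2:39005117-39005146, minus strand: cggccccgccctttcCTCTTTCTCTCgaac
Rplp2, P-stalk, chr7:141447636-141447665, plus strand: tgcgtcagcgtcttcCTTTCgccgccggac
Rps27l, paralog, chr9:66946071-66946100, plus strand: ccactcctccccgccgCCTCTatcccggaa
Rpl4, large subunit, chr9:64173372-64173401, plus strand: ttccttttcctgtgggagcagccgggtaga
Rps19bp1, not a subunit, chr15:80264292-80264321, minus strand: cagggcggaagtagctcgccgcgtgtgggc

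The promoter table held 65 of the 86 members. A run counted from a C exactly at a listed start, whatever base came before, was found in 13 of them (20.0%). Among all genes in the table it was found in 813 of 27025 (3.01%). A run within 5 bases of a start was found in 29 members (44.6%) and in 21.2% of all genes. CACGTG, the E-box bound by MYC and other factors and the same on both strands, was found in the promoter window (250 bases before to 50 after the start) of 6 members (9.23%) and of 8.09% of all genes. These matches describe letters in the window and not the binding or translation of any gene.

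The levels of the ribosomal protein genes were very uneven in mTECs. On the TPM scale, which corrects for the length of the gene model, the mean of the 4 libraries ran from 1.87 for *Rpl26*, a value that rests on WT 1, and 2.32 for *Rpl39* to 2320 for *Rpl4*, with a median of 69.1 over the 77 canonical genes. The 5 highest were *Rpl4*, *Rplp0*, *Rps3a* (named *Rps3a1* in GENCODE), *Rps2* and *Rpl10*. *Rpl4*, a large subunit protein that lines the exit tunnel of the nascent chain, had 2450 and 2130 TPM in WT and 2520 and 2160 TPM with the *Sirt6* cKO label, an order of libraries (number 1 before number 2, WT first) kept in all lists of 4 values below. *Rplp0*, the base of the P-stalk to which elongation factors bind, had 1610, 1530, 1830 and 1410 TPM. The ranges of these 2 genes did not overlap each other. Below them, *Rps3a* had 906, 945, 1160 and 812 TPM, *Rps2* 907, 809, 1200 and 566 TPM, and *Rpl10* 813, 782, 892 and 732 TPM. The ranges of these last genes overlapped. *Rps3a* was above *Rpl10* in every library, while the place of *Rps2* changed between libraries.

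At the other end, 14 canonical genes had a mean under 10 TPM while 8 were over 500 TPM. *Rpl38*, *Rps29*, *Rps21*, *Rpl39* and *Rpl26* were the lowest. *Rpl38*, a small protein of the large subunit, had 1.38, 2.77, 2.69 and 5.27 TPM. *Rps29*, a zinc finger protein of the small subunit, had 3.58, 1.95, 2.34 and 3.11 TPM. *Rps21* had 2.52, 1.91, 4.18 and 2.17 TPM, and *Rpl39* had 3.50, 0.547, 3.79 and 1.43 TPM. These 4 genes overlapped in level, and for *Rpl39* the WT libraries differed most. *Rpl26* had counts of 105, 3, 7 and 9, so its mean of 1.87 TPM rests on WT 1.

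**Figure D1:**
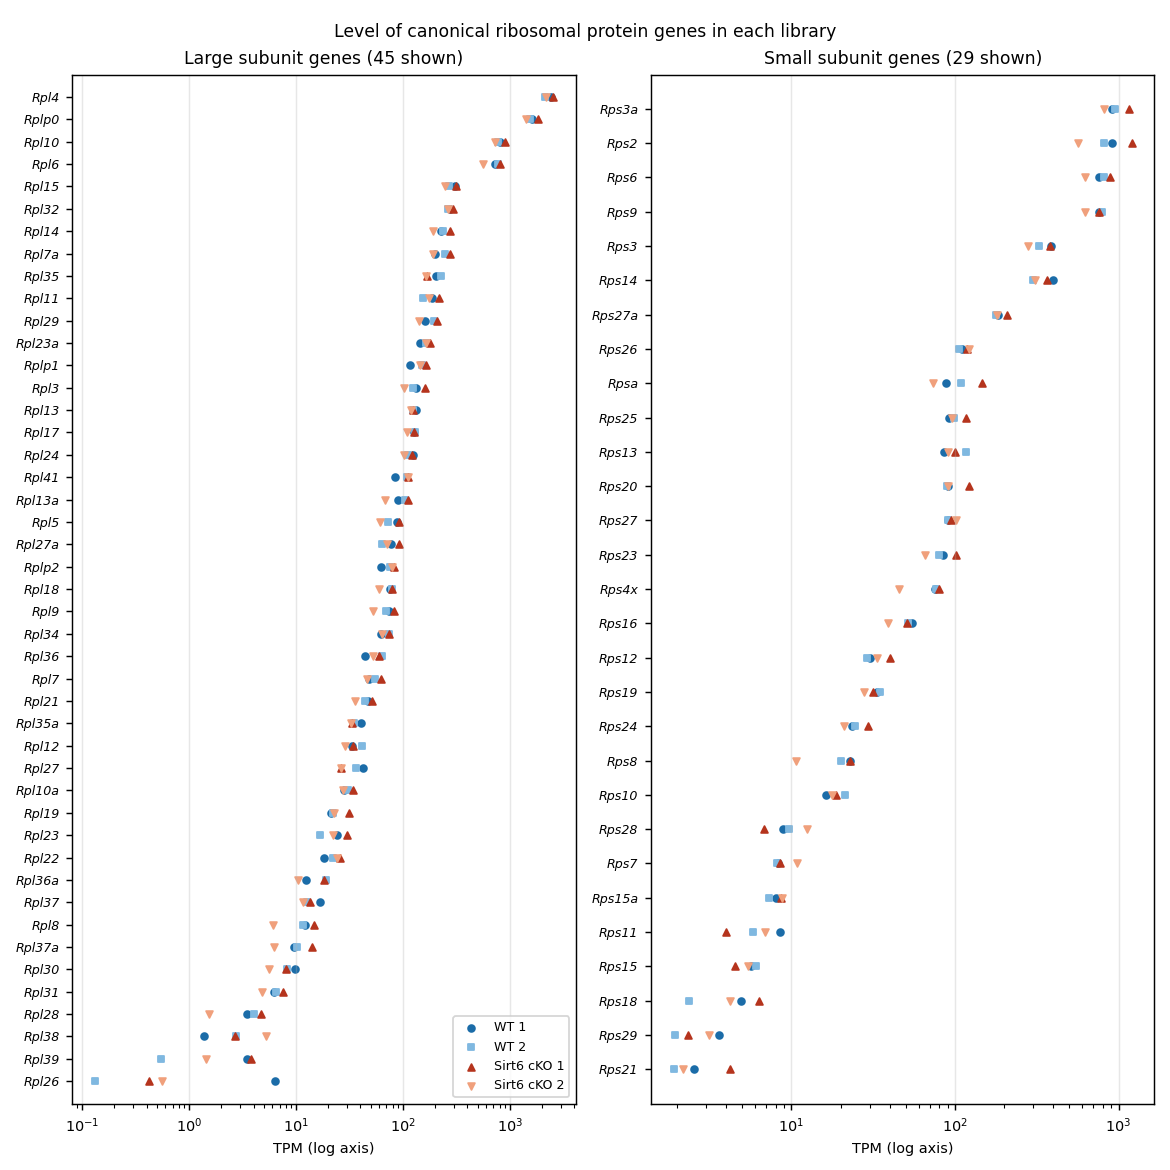
TPM of large subunit genes (left) and small subunit genes (right) in each of the 4 libraries, on a log axis, ordered by the mean of the libraries, with 3 genes not shown. Points are single libraries; the genes span from 1.87 TPM (*Rpl26*, a mean that rests on WT 1) to 2320 TPM (*Rpl4*), and for most genes the 4 points lie close together compared with the distance between genes.

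This order was shared by the groups, since the TPM means of WT and of the libraries labelled *Sirt6* cKO had a Spearman's rho of 0.995 over the 77 genes. The value is across genes, which are not independent replicates and share gene models. The levels rest in part on how reads were assigned. The 50-base words in the longest transcript of each canonical gene were sought on either strand of other genes in GENCODE M21 (GRCm38, the assembly of mm10). A median of 47.9% also occurred in another gene, such as a pseudogene or a gene that overlaps on the other strand. The range was from 0.0% to 95.1% (*Rpl35*). The share was over 50% in 36 of the 77 genes, and 18 overlapped exons of a gene on the other strand. Whether the authors' counting used strand, and which annotation it used, is not given in the sources used here, so single levels are uncertain. Across the 77 genes, mean TPM had a Spearman's rho of 0.18 with the shared words and of 0.31 with the transcript length. The length of the gene model matters for single genes. *Rps15a*, whose longest transcript has 5179 bases against a median of 937, had a mean of 19.2 CPM and 8.18 TPM, while *Rps27* had 16.2 CPM and 94.4 TPM.

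The abundant genes dominated the total. *Rpl4*, *Rplp0*, *Rps6*, *Rps3a* and *Rpl6* held between 52.5% and 53.6% of the counts of all 86 members in each library. The members lie on 19 chromosomes, with 14 of them on chromosome 7, and all 86 were matched to GENCODE.

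The comparison of genotypes asks whether deletion of *Sirt6* changed the expression of these genes. As a group they did not differ in level beyond the spread between libraries. The 86 members together held 0.755% and 0.721% of the counts in WT 1 and WT 2, and 0.792% and 0.607% in *Sirt6* cKO 1 and 2. The WT values lay between the others. The means were 0.738% ± 0.0239 in WT and 0.700% ± 0.131 among *Sirt6* cKO-labelled libraries (SD, n = 2 each), a difference of -0.0384 percentage points (exact two-sided permutation test, p = 1.0, where 0.333 is the smallest p that 2 against 2 can give). The 95% Wilson intervals of the 4 shares, from 0.753 to 0.757, 0.719 to 0.723, 0.790 to 0.795 and 0.605 to 0.609, did not overlap. They leave out the spread between samples and treat reads as independent. PCR reads without molecular identifiers are not independent, so the intervals are too narrow even for counting error. On the TPM scale the shares were 1.48%, 1.45%, 1.66% and 1.28%. The small subunit genes held 0.244%, 0.238%, 0.269% and 0.184% of the counts and the large subunit genes 0.479%, 0.451%, 0.494% and 0.393%, so both subunits were highest in *Sirt6* cKO 1 and lowest in *Sirt6* cKO 2.

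Gene by gene, 82 of the 86 members passed the filter on low counts (76 of the 77 canonical genes) and were tested with edgeR among 18547 genes. No member passed an adjusted p of 0.05, a threshold that 0.00539% of all tested genes passed. At an unadjusted p of 0.05, no member was higher, compared with 5.27% of all tested genes. By the same measure 1 member was lower (1.22%), compared with 3.32% of all genes. This member was *Rps19bp1*, the gene that does not encode a subunit, so none of the 76 canonical genes tested passed. DESeq2 gave the same counts of 0 higher, 1 lower and 0 at the adjusted threshold. Both libraries labelled *Sirt6* cKO were above both WT libraries for 10 members (12.2%, background 21.6%) and below both for 11 members (13.4%, background 20.3%), and the groups overlapped for the other 61. The median log2 fold change was 0.04, with quartiles of -0.13 and 0.16 and a range from -0.99 to 0.90, compared with a median of 0.00 and quartiles of -0.40 and 0.39 over all genes. The sign of the median depends on single libraries, as its value was -0.18 when *Sirt6* cKO 1 was left out and 0.17 when *Sirt6* cKO 2 was left out.

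The precision of these libraries bounds what could be seen. The 95% interval of the fold change lay within 2-fold in either direction for 48 of the 82 members and within 1.5-fold for 7. The 7 genes within 1.5-fold were abundant: *Rpl4*, *Rplp0*, *Rps6*, *Rpl10*, *Rpl15*, *Rpl32* and the paralog *Rpl7l1*. For members whose interval did not lie within 2-fold, a change beyond 2-fold in at least one direction was not excluded.

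**Figure D2:**
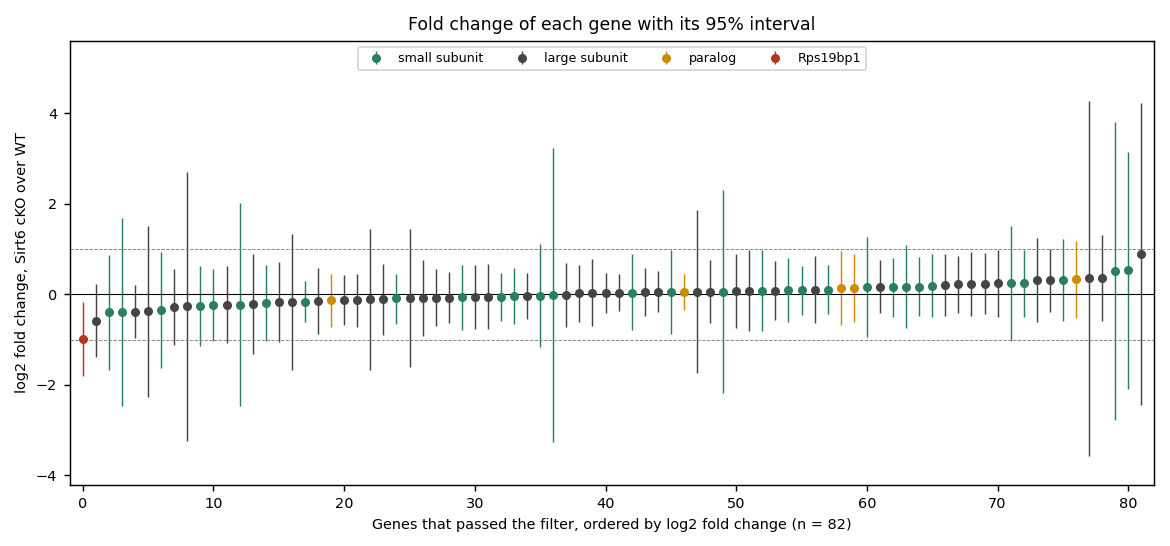
log2 fold change (libraries labelled *Sirt6* cKO over WT) of the 82 members that passed the filter, ordered by value. The 95% intervals were calculated from edgeR's results. Colours mark the small subunit, the large subunit, paralogs and *Rps19bp1*, and dashed lines mark 2-fold. The interval of *Rps19bp1* alone excludes 0, and the widest intervals belong to low genes such as *Rpl39* and *Rpl38*.

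In the small subunit, 31 genes had a median log2 fold change of 0.05, with 17 above 0 and 14 below. Among its genes that were higher without overlap, *Rps12* and *Rps7* had the largest log2 fold changes. *Rps12*, which was 7.23 and 6.76 CPM in WT and 9.49 and 7.90 CPM among *Sirt6* cKO-labelled libraries, had a log2 fold change of 0.32 (SE 0.36, adjusted p = 0.864, edgeR). *Rps7*, which can bind MDM2, was 3.67 and 3.52 against 3.78 and 4.76 CPM (0.25, SE 0.50). Neither difference exceeded its error. *Rps2* and *Rpsa*, by contrast, varied mainly inside one group. *Rpsa*, which also serves as the precursor of a laminin receptor, was 75.4 and 91.0 CPM in WT and 125 and 62.4 CPM in *Sirt6* cKO 1 and 2, and *Rps2* was 418, 362, 551 and 258 CPM. For both genes both WT values lay between those of *Sirt6* cKO 1 and 2. *Rpsa* had a log2 fold change of 0.17 (SE 0.37), which became -0.41 without *Sirt6* cKO 1.

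In the large subunit, 45 genes had a median log2 fold change of 0.02, with 23 above 0 and 22 below. *Rpl27* had the largest difference among genes whose groups did not overlap. It was 14.4 and 12.0 CPM in WT and 8.83 and 8.84 CPM among *Sirt6* cKO-labelled libraries (log2 fold change -0.58, SE 0.32, unadjusted p = 0.129 and adjusted p = 0.681, edgeR). *Rpl27* (chr11:101442298-101445529, plus strand) shares 53.0% of its words with other genes. *Rpl35*, at the exit of the peptide tunnel, was 42.7 and 46.3 against 35.0 and 33.5 CPM (-0.38, SE 0.23, unadjusted p = 0.161 and adjusted p = 0.713). *Rpl35* (chr2:39001580-39005624, minus strand) shares 95.1% of its words, and *Wdr38* is the gene that shares most of them. It overlaps 821 bases of exons of *Wdr38* and *Arpc5l* on the other strand, so both figures partly describe the same bases. Its reads cannot be ascribed to it with certainty.

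Of the 5 large subunit genes that were higher without overlap, *Rpl22*, *Rpl19* and *Rplp2* had the largest log2 fold changes. *Rpl22*, an RNA-binding protein that is dispensable for translation in most cells but required for the development of αβ T cells, was 17.3 and 20.2 CPM in WT and 24.4 and 22.3 CPM among *Sirt6* cKO-labelled libraries (0.32, SE 0.28, unadjusted p = 0.302 and adjusted p = 0.806). It shares 5.2% of its words (chr4:152325742-152334071, plus strand). *Rpl19* was 7.42 and 7.54 against 10.9 and 7.69 CPM (0.31, SE 0.37). None of these genes passed the unadjusted threshold in edgeR.

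The P-stalk is the flexible arm of the large subunit that recruits elongation factors, built from *Rplp0* with *Rplp1* and *Rplp2* in pairs. *Rplp0* was 1010 and 934 CPM in WT and 1140 and 875 CPM among *Sirt6* cKO-labelled libraries (0.05, SE 0.18), and its sign turned (-0.03) with upper quartile normalization or with library size alone. *Rplp1* was 25 and 31.6 against 35.4 and 31.0 CPM (0.23, SE 0.27) and *Rplp2* 12.7 and 14.9 against 16.9 and 15.8 CPM (0.24, SE 0.30). Only *Rplp2* had groups that did not overlap, and its interval from -0.50 to 0.99 included 0.

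The paralogs fell into those with and without counts. *Rpl10l* and *Rpl39l*, known from the testis, had counts of 0, 0, 0 and 0 and of 0, 12, 0 and 0, and *Rpl3l*, known from striated muscle, had 0, 6, 17 and 9. These 3 and *Rpl26* did not pass the filter. With a count of 0, up to 3 counts per library are allowed, so absence is not shown. Of the 5 that were tested, with a median log2 fold change of 0.14, *Rpl7l1*, which acts in the making of the large subunit, had the highest mean of the 4 libraries at 181, 177, 179 and 190 TPM. *Rps27l*, a target of p53, was next at 174, 186, 156 and 171 TPM, a range that overlaps that of *Rpl7l1*, and lay above its partner *Rps27* at 91.2, 90.2, 94.6 and 101 TPM in every library. *Rpl22l1* had 61.9, 68.6, 77.6 and 66.2 TPM, above *Rpl22* at 18.4, 22, 26.0 and 23.9 TPM in every library. In CPM the order was the reverse in every library, with *Rpl22l1* at 13.6, 14.7, 17.0 and 14.4 and *Rpl22* at 17.3, 20.2, 24.4 and 22.3. The longest transcripts have 552 bases for *Rpl22l1* and 2051 for *Rpl22*, and 65.6% and 5.2% of their words are shared with other genes. *Rpl36al* had 45.5, 49.3, 58.3 and 45.5 TPM, and *Rps4y2* had 28.8, 45.8, 48.5 and 44.1 TPM. *Rps4y2* is an older symbol of *Rps4l*, which GENCODE lists as a transcribed processed pseudogene. In none of the 5 did the groups differ beyond the error, with log2 fold changes of -0.13 (*Rps27l*), 0.05 (*Rpl7l1*), 0.14 (*Rpl36al*), 0.15 (*Rpl22l1*) and 0.33 (*Rps4y2*).

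*Rps19bp1* had the smallest p of the 82. It encodes a nucleolar protein, also called AROS, that binds RPS19 and is known as an activator of SIRT1, a relative of SIRT6. Its counts were 1252 and 1258 in WT but 683 and 530 with the *Sirt6* cKO label, which is 19.1, 19.8, 11.3 and 8.26 CPM. The group means were 19.4 ± 0.453 and 9.79 ± 2.16 CPM (SD, n = 2 each), with no overlap. The log2 fold change was -0.99 (SE 0.32, 95% interval from -1.80 to -0.18, unadjusted p = 0.0254 and adjusted p = 0.541, edgeR), so the difference did not pass adjustment over all genes. The unadjusted p rose to 0.0515 without WT 1, 0.0667 without WT 2 and 0.125 without *Sirt6* cKO 2, where the log2 fold change was between -1.04 and -0.80. The gene (chr15:80260615-80264315, minus strand) has no 50-base word in common with another gene and no exon of another gene overlaps it. Its partner *Rps19* was 9.66 and 9.84 against 9.06 and 7.95 CPM (-0.20, SE 0.33).

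**Figure D3:**
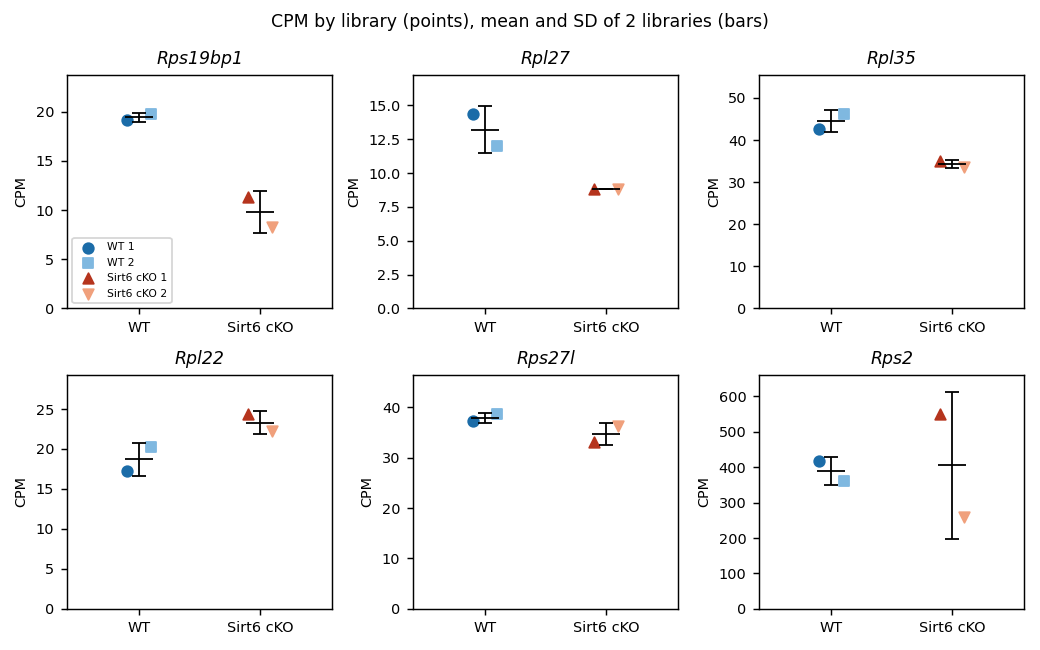
CPM of *Rps19bp1*, *Rpl27*, *Rpl35*, *Rpl22*, *Rps27l* and *Rps2* in each library (points), with the mean and SD of the 2 libraries of a group (black bars); each axis starts at 0. The groups of the first 5 genes do not overlap, while the *Rps2* values of *Sirt6* cKO 1 (551 CPM) and 2 (258 CPM) enclose both WT values.

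Mutations in 1 copy of many ribosomal protein genes cause Diamond-Blackfan anaemia, and 16 such genes were listed. The 15 tested had a median log2 fold change of -0.02, with 7 above 0 and 8 below, and none passed the unadjusted p, which 5.27% of all genes passed as higher and 3.32% as lower. *Rps19*, the gene most often mutated in this disease, is given above. *Rpl5* and *Rpl11*, which bind MDM2 when ribosome assembly stalls, were 81.8, 65.4, 85.0 and 56.3 CPM and 50.9, 41.2, 59.0 and 47.9 CPM. *Rpl5* had a log2 fold change of -0.06 (SE 0.28) and *Rpl11* of 0.22 (SE 0.25), and the groups overlapped for both. *Rpl27* was the member of this list with the lowest value (-0.58). *Rps7*, *Rps10*, *Rps24*, *Rps26*, *Rps27*, *Rps28*, *Rps29*, *Rpl15*, *Rpl31* and *Rpl35a*, ran from -0.18 (*Rpl35a*) to 0.25 (*Rps7*).

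The difference inside the *Sirt6* cKO group was larger than the difference between groups. *Sirt6* cKO 1 held the highest of the 4 values for 51 of the 82 tested members and *Sirt6* cKO 2 the lowest for 45. *Sirt6* cKO 1 was above *Sirt6* cKO 2 for 71 of the 82, with a median log2 ratio of 0.31 and quartiles of 0.14 and 0.55, and for 43 of the 45 large subunit genes. WT 1 was above WT 2 for 39 and below for 43, with a median log2 ratio of -0.02. Over all genes the medians of these ratios were 0.01 and 0.00. The median deviation of the members from each gene's own mean was 0.03, 0.00, 0.18 and -0.17 (log2 CPM) over the 4 libraries in the same order.

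**Figure D4:**
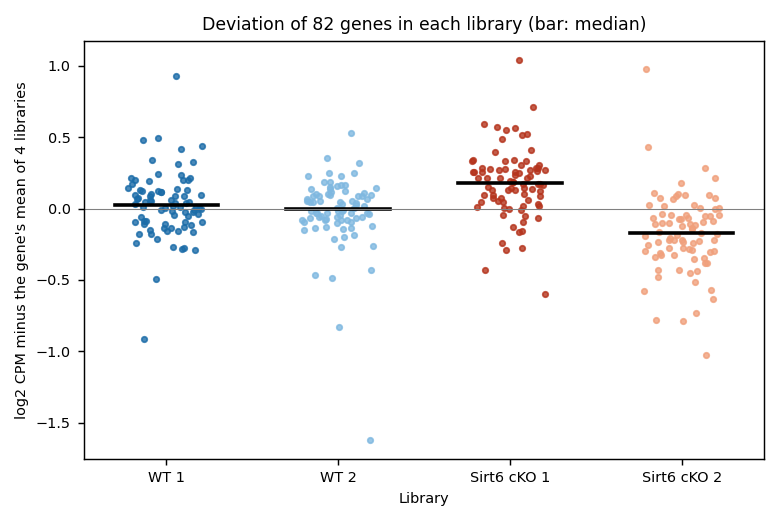
Deviation of each of the 82 tested members from its own mean of the 4 libraries, in log2 CPM, by library; points are genes and black bars are medians. The medians are 0.03 and 0.00 for WT 1 and WT 2, while *Sirt6* cKO 1 has 0.18 and *Sirt6* cKO 2 has -0.17.

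Markers of other cells also differed between these libraries. The summed level of 8 thymocyte genes, among them *Cd3e*, *Cd4*, *Cd8a* and *Rag1*, was 990, 718, 918 and 498 CPM in the same order. It was 416, 390, 497 and 282 CPM for 5 genes of cortical thymic epithelial cells and 180, 139, 148 and 110 CPM for 4 B cell genes, each sum lowest in *Sirt6* cKO 2. Of the 5 cortical genes, *Ly75* went the other way, with both libraries labelled *Sirt6* cKO above both WT libraries. Its log2 fold change was 1.14 (unadjusted p = 0.0216 and adjusted p = 0.541, edgeR), while the other 4 had values below 0 and none passed the unadjusted p. The CD45 gate would remove thymocytes, B cells and myeloid cells, yet none of their markers found here was at 0. Myeloid genes (5 of the 6 listed were found) summed to 4840, 2930, 1870 and 2010 CPM, of which *Lyz2* alone held 4650, 2810, 1780 and 1910 CPM. Fibroblast genes summed to 577, 670, 605 and 652 CPM, and endothelial genes to 88.3, 68.2, 64.3 and 71.1 CPM. For 12 proliferation genes the sums were 1100, 523, 1140 and 577 CPM, high in the libraries numbered 1 of both groups. The part of other cells and of cycling cells in the ribosomal protein values was not tested.

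Genes that act around the ribosome were counted in the same way. Of 63 genes for ribosome assembly (median 0.02) none was higher and 1 was lower at an unadjusted p of 0.05, *Fcf1*, which acts in processing of ribosomal RNA (-0.86, unadjusted p = 0.0352 and adjusted p = 0.55, edgeR). Of 15 genes of RNA polymerase I and its factors (median 0.10) none passed in either direction. Among 25 other translation genes and TOP mRNAs (median 0.14), 2 were higher, the intermediate filament gene *Vim* (0.76) and the helicase gene *Eif4a2* (0.40). Among 29 initiation and termination factors (median -0.14), 1 was higher, *Eif1* (0.69), and 2 were lower, *Eif3g* (-0.54) and *Gspt1* (-1.07). Of 23 genes of mTOR signaling, the Larp proteins and the *Rps6k* kinases (median -0.07) none passed. None of these had an adjusted p under 0.05, and 5.27% of all genes passed as higher and 3.32% as lower.

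*Myc*, which drives transcription of ribosomal protein genes, was 230 and 168 CPM in WT and 208 and 223 CPM among *Sirt6* cKO-labelled libraries, with both of the latter between the WT values. Its log2 fold change was 0.12 (SE 0.21, adjusted p = 0.924, edgeR) and turned to -0.09 without WT 2. Of 12 genes of the MYC network (median 0.13), 2 were higher at the unadjusted p (background 5.27%) and none was lower (background 3.32%). They were *Mxd1*, an antagonist of MYC at its shared partner MAX (0.58, unadjusted p = 0.00661 and adjusted p = 0.541), and *Mycl1*, a relative of *Myc* (0.85, adjusted p = 0.548). *Mxd1* was 645 and 654 CPM against 952 and 995 CPM and passed with each library left out in turn. Of the other genes called here, *Fcf1* and *Eif4a2* missed the unadjusted threshold without any 1 of the 4 libraries, *Vim* without WT 2 (0.57) or *Sirt6* cKO 1 (0.59), and *Gspt1* without WT 1 (-0.53) or *Sirt6* cKO 1 (-0.87). *Eif3g* and *Mycl1* missed it without WT 2, *Sirt6* cKO 1 or *Sirt6* cKO 2, and *Eif1* without WT 1, WT 2 or *Sirt6* cKO 1.

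The mitochondrial ribosome, which translates the few proteins encoded in mitochondria, has its own proteins (Mrpl and Mrps genes). All 76 of them in the table were tested, and their median log2 fold change was -0.26, with quartiles of -0.43 and 0.04, compared with 0.04 for the cytosolic genes. None was higher and 4 were lower at the unadjusted p (5.26%, background 3.32%), and none passed adjustment. The number lower was 2 without WT 1, 2 without WT 2 (where 1 was higher) and 1 without either *Sirt6* cKO library. It was 1 with the replicate number as a block and 7 and 6 with limma at TPM pseudocounts of 1 and 0.1. Between the same groups the summed myeloid markers were 4840 and 2930 against 1870 and 2010 CPM, with 2 of 5 genes lower at the unadjusted p (*Lyz2* -1.02, *Cd68* -1.25). Of 9 mTEC markers, 3 were higher at that p (background 5.27%) and 2 had values below 0. The part of these in the mitochondrial values was not tested. Both libraries labelled *Sirt6* cKO were below both WT libraries for 35 of the 76 (46.1%, background 20.3%) and above for 4. *Mrps11* was 50.9 and 47.1 against 29.2 and 22.9 CPM (-0.91) and *Mrpl42* 16.3 and 18.8 against 9.86 and 9.63 CPM (-0.85), without overlap. *Mrps11* missed the unadjusted threshold without *Sirt6* cKO 2 (-0.76), and *Mrpl42* without WT 2 (-0.74), *Sirt6* cKO 1 (-0.86) or *Sirt6* cKO 2 (-0.85). Their median deviation from each gene's own mean was 0.18 and 0.07 in WT and -0.02 and -0.23 with the *Sirt6* cKO label, and the median fold change was between -0.37 and -0.16 with each library left out in turn. A difference between the cytosolic and the mitochondrial genes was not tested.

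**Figure D5:**
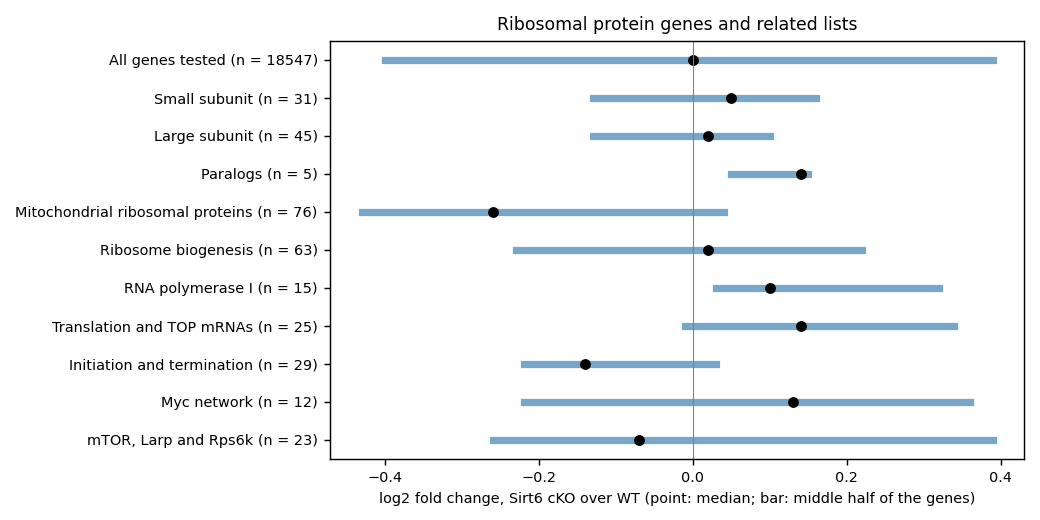
Median log2 fold change (point) and lower to upper quartile (bar) of all tested genes, of the ribosomal protein genes by subunit, and of related gene lists, with the number of genes tested. The small and large subunit genes lie at 0.05 and 0.02, close to the median of all genes at 0.00, and the mitochondrial ribosomal protein genes lie at -0.26.

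By the letters at the start site, the 13 members with a pyrimidine run exactly at a listed start had a median log2 fold change of 0.02 and the 48 tested members of the promoter table without it one of 0.04. The fold change of the 76 canonical genes had a Spearman's rho of 0.06 with the percentage of shared words, and of -0.16 with the transcript length, as a description across genes. Among the 6 pseudogene rows left out, *Rpl34-ps1* had counts of 205, 95, 95 and 54 and *Rps15a-ps6* had counts of 3, 136, 48 and 47. *Rpl34* had 1070, 1224, 1180 and 1081 and *Rps15a* had 1246, 1070, 1233 and 1308. Low members such as *Rps21*, at 30, 22, 46 and 25, lay below *Rpl34-ps1* in every library. Pseudogenes under other names were not counted here.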

How the data were processed

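mTECs were measured by RNA-seq in 4 libraries, 2 in each group as the labels give them. The authors filtered low-quality reads and adaptors (FastQC, Trim Galore), aligned to mm10 with HISAT2 2.1.0 and quantified with StringTie 1.3.3. They deposited whole-number counts for 23337 gene symbols, without normalization, and a TPM table for each library, in which 1 line that holds the column total was left out. The gene annotation and the strand setting are not given in the sources used here.

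All genes were tested with edgeR 4.0.16 in R 4.3.3 (TMM normalization with factors of 1.02, 1.04, 0.966 and 0.973, filterByExpr with its minimum count at 10 and minimum total at 15, glmQLFit and glmQLFTest, Benjamini-Hochberg adjustment at 0.05), with no covariate. This left 18547 genes and a biological coefficient of variation of 0.557. The fit was also run on simulated data in which all genes had the same variability and large changes were planted in genes with higher counts. That run does not cover low genes or small changes. Shared 50-base words and positions come from GENCODE M21, and start windows from the RefSeq table of GRCm38.p6. Python 3.11.15, pandas 2.3.3, numpy 2.4.6, scipy 1.17.1 and matplotlib 3.10.9 were used.

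The members and gene lists were chosen with earlier results of these data known, and the mitochondrial list was added after the files were opened. Named were the P-stalk genes, *Rpsa*, the paralogs, *Rps19bp1*, up to 5 members in each direction by p or, without a p under 0.05, by the size of a change without overlap, the 5 highest and 5 lowest by mean TPM, the listed anaemia genes, the members that failed the filter, *Sirt6*, *Myc* and up to 2 genes in each direction of each related list. Other genes in the text were chosen after their values were seen.

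Alternatives were DESeq2 1.42.0, no filter, a filter at TPM over 0.1, scaling by the upper quartile, by library size alone or by TMM without the members, the replicate number as a block, limma 3.58.1 on log2(TPM + 1) and log2(TPM + 0.1), the canonical genes alone, the share of TPM in place of the share of counts, and the removal of 1 library at a time, where the lone sample of its group is assumed to vary like the other group. Single values of a few genes are not reported here.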

Additional observations from a re-analysis of the deposited data

How the results depend on the processing

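There were 2 libraries in each group, and with 1 left out the spread rests on the other group. Standard errors were larger for low genes (1.56 for *Rpl39*) than for abundant ones (0.16 for *Rpl4*). No member passed an adjusted p of 0.05 or an unadjusted p in the higher direction under any alternative run. The number lower at the unadjusted p was 1, became 2 with limma at a TPM pseudocount of 1 and 2 at one of 0.1, where *Rpl27* was added (-0.56 and -0.58), and was between 0 and 1 with each library left out, 0 without WT 1, WT 2 or *Sirt6* cKO 2. The median of the members was between -0.18 and 0.17 with each library left out, and -0.05 with upper quartile normalization or library size alone, where the median of all genes moved to -0.09. Under these 2 scalings *Rplp0* turned to -0.03 in both and *Rpl7l1* to -0.03 and -0.04. With each library left out the log2 fold change was between -0.15 and 0.22 for *Rplp0*, 0.00 and 0.09 for *Rpl7l1*, -0.41 and 0.57 for *Rpsa*, -0.05 and 0.30 for *Rpl36al* and -0.09 and 0.34 for *Myc*. The cause was not tested. The share of counts differed by between -0.131 and 0.0542 percentage points with each library left out.

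With the replicate number as a block, the median of the members was 0.00 and 1 member was lower, as without it. Among named genes of the related lists, the block ended the unadjusted calls of *Fcf1*, *Gspt1*, *Mycl1* and *Mrpl42*. DESeq2, the upper quartile and library size alone each ended that of *Eif4a2*, the TPM filter that of *Fcf1*, and limma at a TPM pseudocount of 1 those of *Gspt1* and *Mycl1*. The numbers are not shown to pair the samples, since the replicate differences of the groups had a correlation of -0.047 across all genes tested.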
